A study of Mus musculus with 468 samples.

Results

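The genes of the mitochondrial ribosome were followed through the response of mouse adipose tissue to FGF21, a hormone that acts on fat cells through an FGF receptor and its co-receptor beta-Klotho. The mitochondrial ribosome is a 2-subunit machine, made of proteins encoded in the nucleus and ribosomal RNAs encoded in mitochondrial DNA. It makes the few respiratory chain and ATP synthase subunits that mitochondrial DNA encodes, so that these must be matched by the many subunits made by cytosolic ribosomes and imported. Brown fat, which burns fuel to make heat, is rich in mitochondria, and white fat, which stores triglyceride, has fewer. All genes were taken whose platform symbol is Mrpl or Mrps followed by a number, with 1 probe set per gene, the one with the highest mean log2 intensity over all arrays. This gave 72 members out of 21931 named genes, and 62 of them have 1 probe set while 10 have more, 85 probe sets in all. By symbol, 44 members belong to the large subunit and 28 to the small subunit. Structures of the mammalian particle place Mrps30 and Mrps18a in the large subunit in spite of their names, and Mrps36 has since been assigned to the oxoglutarate dehydrogenase complex. All 3 were kept, because the choice was made by symbol alone.

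Each of 468 custom Affymetrix arrays, holding 43681 probe sets, measured 1 RNA sample, from brown fat (BAT) or from inguinal (IWAT), epididymal (EWAT) or retroperitoneal (RPWAT) white fat of male mice aged 8 weeks. Mice received the PEGylated analog PEG30-FGF21 Q108 2 times a week, dosed at 0.75 mg/kg (PEG0.75) or 2.5 mg/kg (PEG2.5), unmodified FGF21 (WT FGF21) at 1.25 mg/kg 2 times a day, or vehicle, for 2 d or 5 d. In the PEG groups 2 d meant 1 dose and 5 d meant 2 doses. One model was chow-fed db/db mice of the C57BLKS/J strain (db/db-chow), which lack a working leptin receptor. The others were C57BL/6 mice fed either a high fat diet (WT-HFD) or chow (WT-chow), so that db/db-chow differs from them in strain as well as genotype. The db/db mice also came from another supplier and ate a different chow product from that of the WT-chow mice. Genotype, strain, supplier and chow product therefore cannot be told apart. The final injection preceded tissue collection by about 30 h in the PEG groups and by about 6 h in the WT FGF21 and vehicle groups, so treatment and time since the last dose cannot be told apart in the PEG groups. There were 96 groups, 87 of 5 arrays, 6 of 4 and 3 of 3. The labels do not say which arrays of different depots came from the same mouse, and the same mice probably gave all 4 depots.

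The deposited values are linear intensities, and all differences below are on the log2 scale, treatment minus vehicle of the same depot, model and day. Arrays of 1 depot and model had close medians, but medians differed between such sets, from 11.2 to 11.8 in BAT and from 57.1 to 62.0 in IWAT of WT-chow mice. Levels across depots and models were therefore described without a test. In vehicle WT-chow mice the brown fat markers (Ucp1, Cidea, Elovl3, Cox7a1, Cox8b, Dio2 and Ppargc1a) had a median percentile rank of 99.5 in BAT, against 69.5 in IWAT, 59.0 in EWAT and 85.7 in RPWAT, and adipocyte markers ranked above 99 in every depot. Skeletal muscle markers varied widely between arrays of BAT, IWAT and RPWAT. A pair of IWAT arrays stood apart. Array 3 of WT-HFD given WT FGF21 for 5 d had a median correlation of 0.898 with the rest of its set and a mammary epithelium marker sum of 25710, where the other arrays of its group had 150 to 189, and an adipocyte marker sum of 6739. Array 2 of db/db-chow vehicle at 2 d had a correlation of 0.882. IWAT values include these arrays unless it is said that they were left out. In bulk tissue, a change in the share of a cell type and a change in RNA per cell cannot be told apart.

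The first comparison asked whether members responded to FGF21 over all models and days, with an N-way model for each depot fitted by limma and a threshold of p under 0.001. More members were higher with FGF21 than lower in all 4 depots. In BAT, 30 members were higher and 4 were lower, where 8.54% of all probe sets were higher and 10.9% were lower. In IWAT, 41 members were higher and 0 were lower, where 4.74% of probe sets were higher and 2.91% lower. Without the 2 arrays that stood apart, 33 members were higher and 0 lower, where 4.59% of probe sets were higher and 5.99% lower. In EWAT, 13 members were higher and 0 lower, where 3.57% of probe sets were higher and 3.19% lower. In RPWAT, 27 members were higher and 0 lower, where 5.17% of probe sets were higher and 2.88% lower. The shifts were small. The median log2 difference of the members was 0.060 in BAT, 0.13 in IWAT (0.088 without the 2 arrays), 0.051 in EWAT and 0.077 in RPWAT. At an adjusted p under 0.05 (limma, Benjamini-Hochberg), 42 members were higher and 6 lower in BAT, where 13.1% of probe sets were higher and 15.7% lower. Probe sets in the brighter part of the array were also called more often than the rest, and among those at or above the median level of BAT 15.7% were higher and 19.9% lower.

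**Figure D1:**
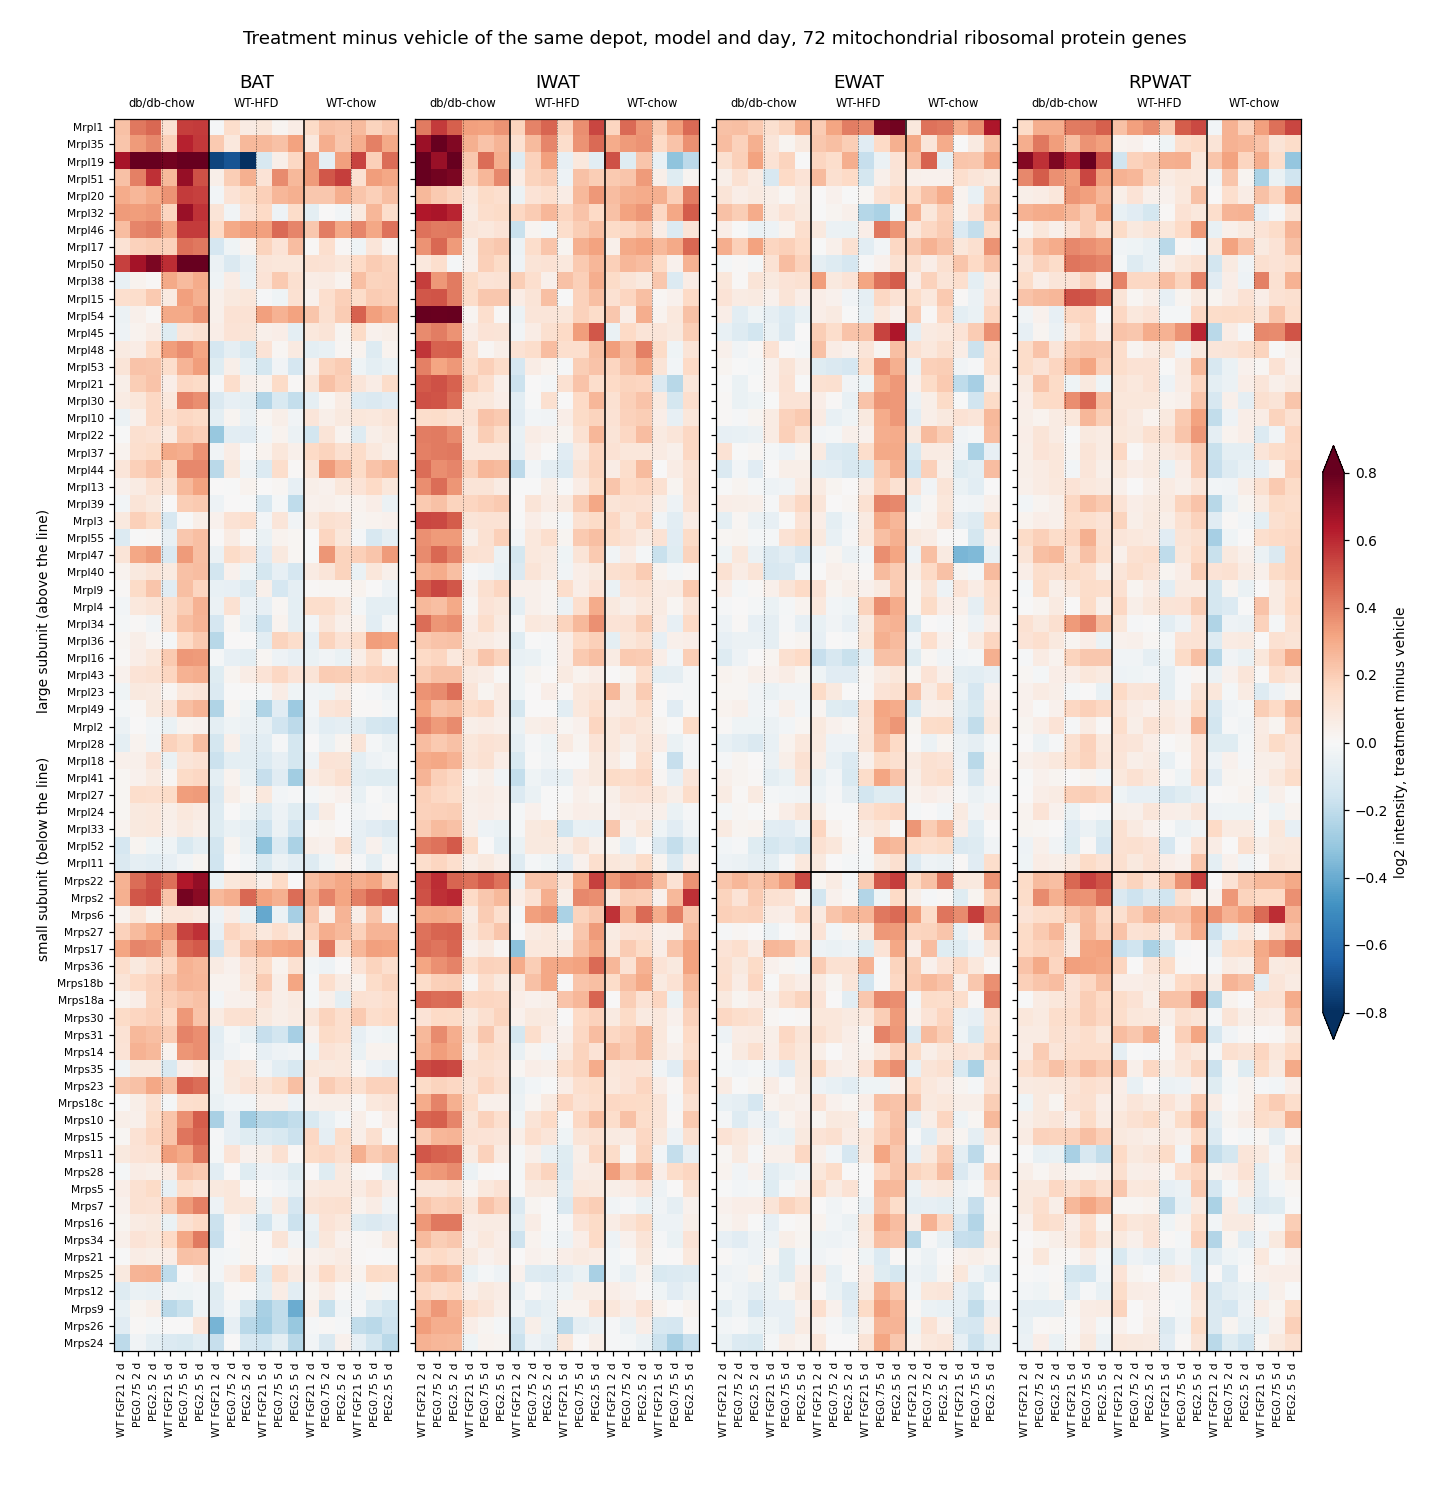
Log2 intensity, treatment minus vehicle, for the 72 members (rows, large subunit above the line and small subunit below it, each sorted by the mean N-way difference) in the 18 contrasts of each depot (columns, by model, day and treatment). Red is higher and blue lower with treatment; the colour scale is cut at 0.8. The red block of IWAT db/db-chow at 2 d rests on 1 vehicle array, and blue is most frequent in BAT of WT-HFD mice.

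Both subunits took part. In BAT, 18 of 44 large-subunit members and 12 of 28 small-subunit members were higher, with median differences of 0.058 and 0.068. The counts for large and small subunits were 24 and 17 for IWAT (18 and 15 without the 2 arrays that stood apart), 6 and 7 for EWAT and 16 and 11 for RPWAT. Members marked as having a counterpart in bacteria (44 of 72), mostly by their number, and the rest (28) also both contributed, with 16 and 14 higher in BAT. This marking was rough, since Mrpl47, the counterpart of bacterial L29, was among the rest. Over the depots, 10 members were higher in all 4, 10 in 3, 10 in 2, 21 in 1 and 21 in 0. Of all probe sets 0.865% were higher in all 4, 1.56% in 3, 2.67% in 2, 8.54% in 1 and 86.4% in 0. Those higher in all 4 depots were Mrpl1, Mrpl17, Mrpl20, Mrpl35, Mrpl38, Mrps18a, Mrps18b, Mrps22, Mrps30 and Mrps36. A further 3, Mrpl45, Mrps14 and Mrps6, were higher in the 3 white depots but not past the test in BAT, as were 0.833% of all probe sets. With the 2 IWAT arrays left out the counts were 10, 8, 9, 21 and 24, with the same 10 and the same 3 members, against 0.902%, 1.54%, 2.49%, 8.68% and 86.4% of all probe sets, and 0.875% for the white depots alone. These counts come from depots that probably share mice, and are not independent of each other.

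Mrpl1, the protein of the flexible L1 stalk by which spent tRNA leaves the large subunit, had the smallest p of the members in all 3 white depots. Its N-way difference was 0.36 ± 0.038 in IWAT (SE), 0.35 ± 0.038 in EWAT, 0.33 ± 0.032 in RPWAT and 0.22 ± 0.026 in BAT (limma N-way fit, largest adjusted p = 3.11e-12), and 0.34 in IWAT without the 2 arrays. Mrps22, a small-subunit protein that bacteria lack and whose loss in humans causes a combined respiratory chain defect, was also of similar size in every depot, 0.28 in BAT, 0.34 in IWAT (0.33 without the 2 arrays), 0.25 in EWAT and 0.27 in RPWAT. Other members depended more on the depot. Mrps2, which binds the small-subunit RNA as its bacterial counterpart S2 does, had the largest difference of the members in BAT, 0.42 (limma N-way fit, adjusted p = 1.84e-20), and 0.038 in EWAT (adjusted p = 0.62). Mrps6, the counterpart of bacterial S6, showed the opposite order, with 0.026 in BAT (limma N-way fit, adjusted p = 0.534), 0.27 in EWAT (adjusted p = 1.58e-11) and 0.26 in RPWAT (adjusted p = 1.36e-12). The 4 members lower in BAT were Mrps24 (-0.11), Mrps9 (-0.11), Mrps26 (-0.11) and Mrpl2 (-0.069). None of them was lower in a white depot by this test, and the values of Mrps24 in IWAT, EWAT and RPWAT were -0.00063, 0.021 and -0.00032, with -0.041 in IWAT without the 2 arrays.

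The other genes of mitochondrial protein synthesis were compared by lists. Of 17 translation factors, which start, extend or end the protein chain, 9 were higher and 2 lower in BAT, with Gfm1, an elongation factor, at 0.19, and Mrrf, which recycles the ribosome, at 0.36. In IWAT 7 were higher, in EWAT 2 and in RPWAT 6, and 0 were lower in these depots. Of 18 mitochondrial aminoacyl-tRNA synthetases, 8 were higher and 2 lower in BAT, and Cars2 had a difference of 0.74 there. In IWAT 3 were higher, in EWAT 1 higher and 1 lower, and in RPWAT 5 higher. Of 16 genes of ribosome assembly and rRNA modification, 9, 5, 2 and 5 were higher in BAT, IWAT, EWAT and RPWAT, and 1 was lower in BAT. Of 13 genes of mitochondrial DNA transcription and maintenance, 8, 2, 0 and 4 were higher and 1 was lower in BAT. Tfam, which packages mitochondrial DNA and activates its transcription, had 0.40 in BAT and 0.20 in IWAT (0.13 without the 2 arrays). Of 17 regulators of mitochondrial gene expression, 2 were higher and 2 lower in BAT, with Esrra at 0.17 and Ppara at -0.65. A set of 6 mitochondrial ribosome proteins that carry other symbols, such as Dap3, had 3, 3, 0 and 1 higher.

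The ribosome of the cytosol was followed through 74 of its proteins. Of these, 12 were higher and 31 lower in BAT, with a median of -0.053, and 3, 2 and 2 were higher in IWAT, EWAT and RPWAT with 0 lower. Of 77 nuclear-encoded respiratory chain and ATP synthase subunits, 9 were higher and 10 lower in BAT, 24 were higher in IWAT, 1 was lower in EWAT and 6 were higher in RPWAT. In IWAT without the 2 arrays that stood apart, 16 respiratory chain subunits and 2 cytosolic ribosomal proteins were higher with 0 lower. By that fit 5 translation factors were higher and 1 lower, 3 synthetases higher and 2 lower, 4 assembly genes, 2 genes of mitochondrial DNA and 2 proteins with other symbols higher with 0 lower, and 2 regulators higher and 2 lower. Of the 7 brown fat markers, 3 were higher and 1 lower in BAT and 4 were higher in IWAT, with Ucp1, which makes heat by uncoupling respiration, at 0.10 in BAT and 1.69 in IWAT (1.71 without the 2 arrays). Of the 5 endothelial markers, 2, 3, 4 and 2 were lower in BAT, IWAT, EWAT and RPWAT, and 1 was higher in BAT. All 5 were lower in IWAT without the 2 arrays. Macrophage markers were lower for 2 of 5 in BAT, and no lymphocyte marker passed the test in any depot. Whether shifts in cell types had a part in the members' differences was not tested.

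**Figure D2:**
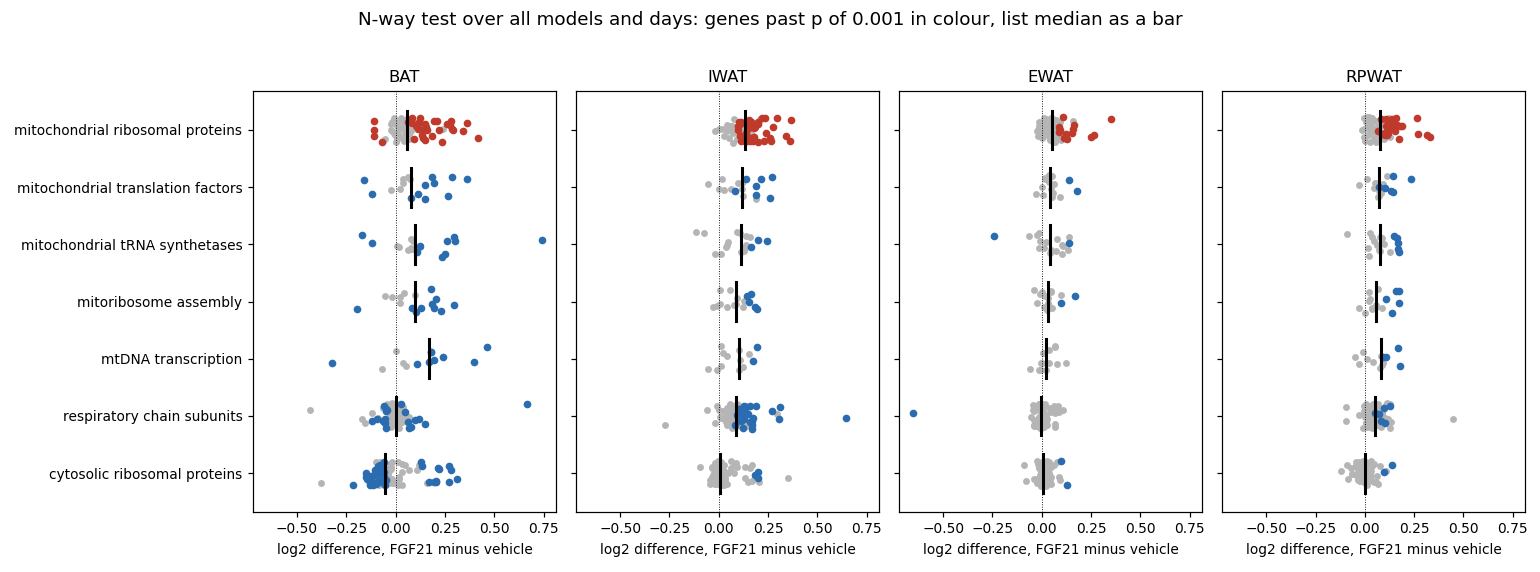
N-way log2 difference, FGF21 minus vehicle, of each gene (points) by list and depot. Coloured points are past the N-way threshold and bars are list medians; the members' median was 0.060 in BAT and that of the cytosolic ribosomal proteins -0.053.

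Each treatment was then compared with vehicle of the same depot, model and day (limma, adjusted p under 0.05 over all probe sets), with 1296 member-contrast pairs per depot. In BAT there were 304 higher and 51 lower calls, or 23.5% and 3.94% of the pairs, where 4.71% and 5.11% of all pairs of a probe set and a contrast were called. Over the 18 BAT contrasts 58 of 72 members were higher at least once (80.6%) and 24 were lower at least once (33.3%), against 27.8% and 28.8% of all probe sets. IWAT had 165 higher and 0 lower calls, 12.7% against 2.24% of all pairs for higher calls and 1.08% of all pairs for lower ones. Without the 2 arrays that stood apart it had 71 higher and 1 lower, 5.48% and 0.0772% against 1.02% and 0.858%. EWAT had 75 higher and 3 lower calls, 5.79% and 0.231% against 1.2% and 0.793%. RPWAT had 85 higher and 1 lower, 6.56% and 0.0772% against 1.49% and 0.835%. These counts depended on how the spread was estimated. With only the arrays of the compared groups in the fit, the higher calls were 13 in IWAT, 22 in EWAT, 67 in RPWAT and 239 in BAT, and with an unmoderated gene-by-gene analysis of variance, adjusted over all probe sets, they were 2, 5, 39 and 193. The 3 treatments of a day share their vehicle arrays. In BAT the calls divided unevenly between models, with 185 higher and 4 lower in db/db-chow, where 6.26% and 6.02% of all pairs were called and the members had 42.8% and 0.926%. There were 33 higher and 43 lower in WT-HFD, 7.64% and 9.95% against 3.74% and 5.38% of all pairs, and 86 higher and 4 lower in WT-chow, 19.9% and 0.926% against 4.13% and 3.92%. Shares of all probe sets, here and below, include dim ones, while the members lay in the brighter part of the array. By the N-way test in BAT, 19.9% of the brighter probe sets were lower, against 10.9% of all. The share of lower calls in WT-HFD is therefore not read as particular to the members. The members not called in any BAT contrast were Mrpl23, Mrpl45, Mrps12, Mrps18c and Mrps35, where 50.7% of all probe sets were not called.

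BAT of db/db-chow mice had the broadest response. After 5 d of PEG2.5, 52 members were higher and 0 lower, where 9.14% of probe sets were higher and 9.63% lower. The members' median was 0.27, against 0.022 over all probe sets, and 68 of 72 had a positive difference. In 48 members every treated array was above every vehicle array, where 6.71% of probe sets showed this. Of the large subunit 34 of 44 members rose and of the small subunit 18 of 28. Leaving out 1 array at a time gave 46 to 53 members higher.

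Mrps2 led the members in BAT, since it was called higher in 18 of 18 contrasts, with differences of 0.23 to 0.77. In db/db-chow mice given PEG2.5 for 5 d it read 725, 790, 774, 697 and 864 intensity units, against 460, 482, 504, 442 and 439 in vehicle mice. The lowest treated array was well above the highest vehicle array, and the difference was 0.72 ± 0.078 (SE), a fold of 1.65 (limma, adjusted p = 9.02e-13). In WT-HFD mice it read 1873, 1874, 1933, 1631 and 1892, against 1545, 1194, 1233, 1245 and 1571 in vehicle mice. These groups were also apart, with array 4 the lowest treated array, and the fold was 1.36 (adjusted p = 4.69e-06). WT-chow mice had 743, 728, 781, 768 and 818 with PEG2.5, against 556, 548, 531, 581 and 497 with vehicle, a fold of 1.41 (limma, adjusted p = 3.25e-07). Mrps2 was thus higher in all 3 models, on top of vehicle levels that were not comparable between them.

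Mrpl20, whose bacterial counterpart binds the large rRNA early in assembly, was called higher in 15 BAT contrasts. In db/db-chow mice at 5 d it read 2058, 2223, 2105, 2034 and 2466 with PEG2.5, against 1289, 1367, 1658, 1595 and 1552 with vehicle. The groups did not overlap, and the difference was 0.55 ± 0.054 (limma, adjusted p = 1.84e-14). Mrpl46, a large-subunit protein found in mitochondria but not bacteria, was also called in 15 contrasts and had a positive difference in all 18. It read 677, 688, 781, 740 and 840 with PEG2.5, against 485, 494, 532, 473 and 539 with vehicle, with all treated arrays above all vehicle arrays and a fold of 1.47 (adjusted p = 9.24e-08). Mrps23 and Mrps30 were called in 12 contrasts each. Mrps23 read 1098, 1252, 1101, 1108 and 1328 with PEG2.5, against 755, 816, 954, 891 and 895 with vehicle, a fold of 1.37. Mrps30 moved less, with 1958, 1984, 2125, 1861 and 1811 against 1713, 1573, 1592, 1700 and 1723, and still without overlap, at a fold of 1.17 (limma, adjusted p = 1.89e-06).

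Mrps22 and Mrpl1, which rose in every depot by the N-way test, were among the members that rose here. Mrps22 read 1197, 1259, 1425, 1276 and 1439 in db/db-chow mice given PEG2.5 for 5 d, against 758, 778, 874, 811 and 821 in vehicle mice. The difference was 0.70 ± 0.077 (limma, adjusted p = 1.85e-12). Mrpl1 read 1345, 1427, 1530, 1508 and 1570 with PEG2.5, against 1114, 1041, 1007, 922 and 921 with vehicle, and neither gene had overlapping groups. Mrpl50, another large-subunit protein without a bacterial counterpart, falls outside the rule for named genes and was chosen after its values were seen. It read 1729, 1740, 1880, 1598 and 1745 with PEG2.5, against 937, 855, 1252, 1186 and 819 with vehicle, a fold of 1.75 (adjusted p = 1.75e-12). Mrpl19, the counterpart of bacterial L19 at the interface of the subunits, had the highest difference, 0.89 ± 0.23, but was dim and uneven. Its arrays read 262, 277, 274, 256 and 157 with PEG2.5, against 140, 83, 182, 125 and 138 with vehicle, so array 5 lay within the range of vehicle.

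Other cell markers and lists in this comparison were as follows. Of the 17 translation factors 11 were higher, of the 18 synthetases 12 and of the 77 respiratory chain subunits 29, with 0, 0 and 1 lower. Of 16 assembly genes 6 were higher and 0 lower, and of 13 genes of mitochondrial DNA 8 and 1. Of 6 ribosome proteins with other symbols 4 were higher and 0 lower. The 17 regulators of mitochondrial gene expression went the other way, with 2 higher, 5 lower and a median of -0.164. The respiratory chain list had a median of 0.064 and the cytosolic ribosomal proteins, with 5 higher and 17 lower, had -0.041. Brown fat markers were higher for 4 of 7, with a summed intensity of 29416 to 30680 in PEG2.5 arrays and 26559 to 28865 in vehicle arrays. Endothelial markers were lower for 4 of 5 and higher for 1, with sums of 4306 to 4366 in PEG2.5 arrays and 4771 to 5217 in vehicle arrays. Skeletal muscle markers did not pass the test for any of 7 genes, but all 7 had a negative difference, and their sum was 1255 to 16170 in PEG2.5 arrays and 14784 to 27562 in vehicle arrays. Macrophage markers were lower for 1 of 5, with sums of 2265 to 3021 and 2480 to 3553, and the lymphocyte sum was below 120 in every array. The part of these cell types in the members' rise was not tested.

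The response of db/db-chow BAT could be followed over treatments and days. At 2 d, 9 members were higher and 1 lower with WT FGF21 (3.33% of probe sets higher, 2.94% lower), 21 higher and 0 lower with PEG0.75 (4.09% and 2.44%) and 28 higher and 0 lower with PEG2.5 (5.39% and 4.06%). At 5 d, 24 were higher and 2 lower with WT FGF21 (5.66% and 5.98%), 51 higher and 1 lower with PEG0.75 (9.97% and 11.1%) and 52 higher with PEG2.5. With WT FGF21, leaving out 1 array gave 17 to 30 members higher. The dose itself was compared within each day. No member differed between PEG2.5 and PEG0.75 in db/db-chow BAT at either day (limma, adjusted p under 0.05). The change between days was also tested as 5 d minus 2 d of the response to PEG2.5. With PEG2.5 the days also differ in the number of doses, so the effects of time and of dose number cannot be told apart. Only Mrps34, Mrpl16 and Mrps15 had a larger response at 5 d, by 0.32, 0.25 and 0.29, where 0.806% of probe sets had a positive difference.

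BAT of WT-chow mice responded in fewer members. With PEG2.5 for 5 d, 19 were higher and 3 lower (7.04% and 7.66% of probe sets), with a median of 0.045. With PEG0.75 the counts were 22 and 1 (6.07% and 5.98%), and with WT FGF21 12 and 0 (4.55% and 4.52%). At 2 d they were 3, 17 and 13 higher for WT FGF21, PEG0.75 and PEG2.5 with 0 lower (1.3%, 3.75% and 2.09% of probe sets higher, 1.05%, 2.41% and 1.88% lower), and without vehicle array 4 the count for PEG2.5 was 8. In the comparison at 5 d with PEG2.5, 40 of 74 cytosolic ribosomal proteins were lower and 5 higher, and 4 of 5 macrophage markers were lower. Brown fat markers were higher for 3 of 7, adipocyte markers lower for 1 of 5, and endothelial markers higher for 1 of 5 and lower for 1.

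In BAT of WT-HFD mice members moved both ways. With PEG2.5 for 5 d, 10 members were higher and 16 lower (5.9% and 8.14% of probe sets), and 32 of 72 had a positive difference. With WT FGF21 for 2 d, 1 was higher and 14 were lower (4.95% and 9.1%). The count of lower members was 6 without vehicle array 2, 8 and 9 without treated arrays 1 and 3, and 21 without vehicle array 3. Endothelial markers were lower for 1 of 5 in that comparison and had 5 negative differences, with sums of 6864 to 7695 with WT FGF21 and 7493 to 8072 with vehicle. Macrophage markers were lower for 1 of 5 (median -0.40), with sums of 704 to 1614 and 813 to 1736, and adipocyte markers for 1 of 5, at -2.33, with sums of 36377 to 38685 and 38230 to 41003. Brown fat markers were higher for 2 of 7, with sums of 51589 to 59143 and 48767 to 52205. Skeletal muscle markers did not pass the test, but all 7 had a positive difference, with sums of 393 to 42431 and 268 to 18182. What these cell types contributed was not tested. PEG0.75 gave 2 higher and 0 lower at 2 d (0.746% and 0.792%) and 10 higher and 2 lower at 5 d (4.75% and 4.43%). PEG2.5 at 2 d gave 4 higher and 2 lower (2% and 3.98%). There the higher count was 2 without treated array 2 or vehicle array 3, and the lower count was 1 without treated array 5 and 5 without vehicle array 3. In these mice WT FGF21 at 5 d gave 6 and 9 (4.09% and 5.83%). Lower calls depended on how the spread was estimated. When only the compared groups entered the fit, the 51 lower calls of BAT became 18 and the 304 higher calls became 239. The shares of all probe sets under that fit are not given. In the comparison at 5 d with PEG2.5, 35 of 74 cytosolic ribosomal proteins were lower and 8 higher, and 15 of 77 respiratory chain subunits were lower and 6 higher. Adipocyte markers were lower for 2 of 5, to -3.72, with sums of 36400 to 37895 with PEG2.5 and 38480 to 41018 with vehicle. Brown fat markers were higher for 3 of 7 and lower for 1, and their sums, 54065 to 56681 with PEG2.5 and 47198 to 53709 with vehicle, did not overlap. Endothelial markers were higher for 1 of 5 and lower for 1, and 1 of 2 red blood cell markers was higher. Of 7 skeletal muscle markers 1 was higher, at 3.80, and the other 6 had negative differences, with sums of 2778 to 29628 with PEG2.5 and 1553 to 18261 with vehicle. The part of these in the members' differences was not tested.

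The members most often lower in BAT were Mrps10, Mrpl33, Mrpl2, Mrps9 and Mrps24, with 4 calls each. Mrps9, whose bacterial counterpart S9 touches the tRNA being read, had the largest of these falls in WT-HFD BAT. With PEG2.5 for 5 d it read 1481, 1348, 1327, 1719 and 1550, against 1715, 2219, 1985, 1998 and 1847 in vehicle mice. The groups overlapped in 1 pair of arrays, at 1719 and 1715, and the fold was 0.76 (limma, adjusted p = 4.44e-06). Mrps24, the counterpart of bacterial S3, read 2895, 2935, 3325, 3409 and 3290 with PEG2.5, against 3379, 3643, 3893, 3932 and 3661 with vehicle. Here too only the highest treated array reached the lowest vehicle array, and the fold was 0.856 (adjusted p = 0.00768). Mrpl41 and Mrps6 fell to folds of 0.824 and 0.83 (limma, adjusted p = 2.59e-06 and 0.00365). Mrps6 arrays were close together with PEG2.5, at 3660, 3427, 3622, 3741 and 3435, against 4282, 3370, 5280, 4142 and 4685 with vehicle. The second vehicle array was the lowest of all 10.

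Mrps10, which as S10 does in bacteria forms part of the head of the small subunit, was called in opposite directions in db/db-chow and WT-HFD BAT, with different treatments and days. In db/db-chow BAT it read 809, 788, 848, 873 and 915 with PEG2.5 for 5 d, against 598, 559, 659, 597 and 619 with vehicle, which is a difference of 0.48 ± 0.071 without overlap (limma, adjusted p = 4.8e-08). In WT-HFD BAT with WT FGF21 for 2 d it read 1011, 1085, 993, 1066 and 990, against 1210, 1367, 1099, 1264 and 1231 with vehicle. These groups did not overlap either, and the difference was -0.26 ± 0.071 (limma, adjusted p = 0.00616). With PEG2.5 for 5 d in WT-HFD BAT it was 1019, 943, 1016, 1209 and 1123, against 1117, 1283, 1282, 1290 and 1095, with overlap, and the difference of -0.19 did not pass the test (limma, adjusted p = 0.0522).

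Altogether 15 members were called both higher and lower within BAT, namely Mrpl18, Mrpl19, Mrpl22, Mrpl30, Mrpl36, Mrpl39, Mrpl41, Mrpl44, Mrpl49, Mrps6, Mrps10, Mrps15, Mrps25, Mrps31 and Mrps34. They were 20.8% of the members, and 7.39% of all probe sets were called both ways. Of the 15, 13 were lower in WT-HFD and higher in db/db-chow, as were 2.94% of all probe sets. In db/db-chow BAT 57 of 72 members were higher at least once (79.2%, against 17% of all probe sets), and in WT-HFD BAT 23 were lower at least once (31.9%, against 16.4%), so that the share higher in db/db-chow was smaller among these 23, 13 of 23, than among all 72. Mrpl19 was the extreme case. In WT-HFD mice given PEG2.5 for 2 d it read 358, 242, 243, 243 and 157, against 442, 910, 751, 400 and 567 in vehicle mice, a difference of -1.28 ± 0.23 (limma, adjusted p = 2.3e-05). Its vehicle arrays spread more than 2-fold, and 5 d minus 2 d of its response in WT-HFD was 1.44 (limma, adjusted p = 0.0119), where 0.266% of probe sets had a positive difference.

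Whether models differed was tested as the difference of responses to PEG2.5 at 5 d. In BAT, 29 members responded more in db/db-chow than in WT-chow and 0 responded less, where 3.64% of probe sets had a positive difference and 3.72% a negative one. The members' median difference was 0.21. No member differed between WT-HFD and WT-chow in any depot, nor between db/db-chow and WT-chow in a white depot. The difference between db/db-chow and WT-HFD was added after the data had been seen. In BAT 41 members responded more in db/db-chow and 0 less, where 4.87% of probe sets were positive and 3.39% negative, with a median of 0.25 and a positive value in 70 of 72. Mrps15 (0.64 ± 0.082), Mrps31 (0.64 ± 0.087) and Mrps10 (0.68 ± 0.10) had adjusted p of 4.35e-09, 2.75e-08 and 3.19e-07 (limma, Benjamini-Hochberg). Mrps22 differed by 0.70 and Mrpl1 by 0.50. Mrps2, Mrpl46 and Mrps24 differed by 0.28, 0.17 and 0.14 without passing the test (limma, adjusted p = 0.113, 0.481 and 0.434).

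**Figure D3:**
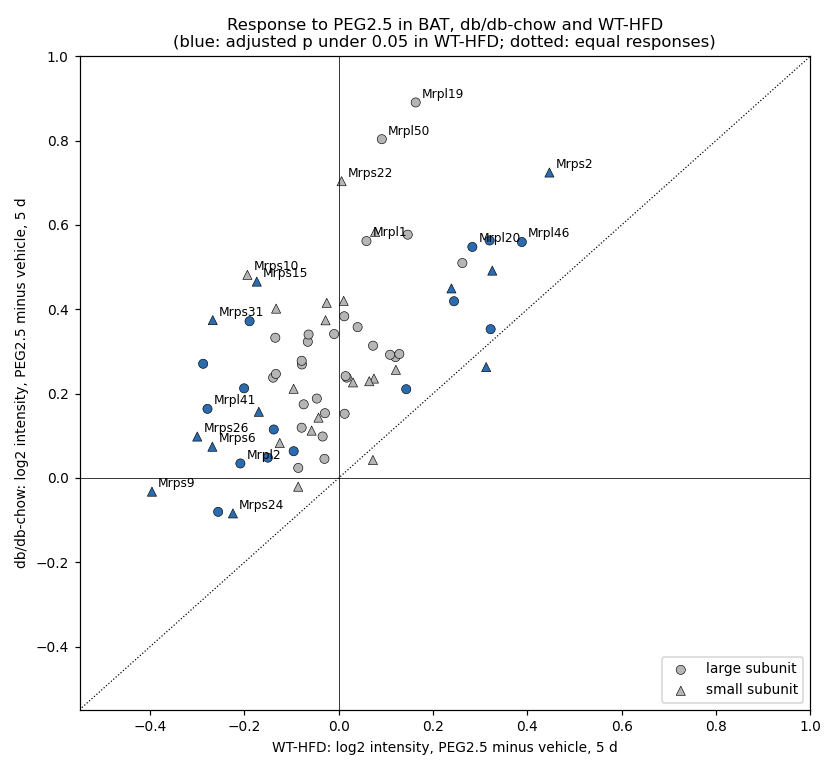
Response of each member to PEG2.5 at 5 d in BAT, db/db-chow (vertical) against WT-HFD (horizontal), as log2 intensity of PEG2.5 minus vehicle; circles are large-subunit and triangles small-subunit members. Blue points passed the test in WT-HFD, and 70 of 72 points lie above the dotted line of equal responses.

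In EWAT of WT-HFD mice at 5 d, with PEG2.5, 18 members were higher and 0 lower (2.46% and 1.48% of probe sets), with a median of 0.24 against 0.032 over all probe sets. In 33 members all treated arrays lay above all vehicle arrays, where 6.4% of probe sets did. With PEG0.75, 23 were higher and 0 lower (2.57% and 1.26%), and with WT FGF21 2 and 0 (1.31% and 1.02%). The vehicle group had only 3 arrays. Without vehicle array 1 or 4, 10 and 6 members were higher with PEG2.5, and 12 and 3 with PEG0.75. Leaving out treated array 3 gave 10 for PEG2.5 and 7 for PEG0.75, and leaving out treated array 1 gave 12 for PEG0.75. In the comparison with PEG2.5, 6 of 77 respiratory chain subunits and 0 of 74 cytosolic ribosomal proteins were higher. Adipocyte markers were higher for 2 of 5, brown fat markers for 1 of 7 and red blood cell markers for 1 of 2, at 1.14. Red blood cell sums did not overlap, at 14768 to 16720 with PEG2.5 and 13404 to 13839 with vehicle. No macrophage, endothelial or muscle marker passed the test, with macrophage sums of 5144 to 9713 in PEG2.5 arrays and 7485 to 9978 in vehicle arrays. The part of these cell types was not tested.

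Mrpl1 was called in 9 EWAT contrasts, more than any other member there. In WT-HFD mice at 5 d it read 1136, 1154, 1455, 1126 and 1294 with PEG2.5, against 672, 724 and 762 with vehicle. The groups were far apart, and the difference was 0.77 ± 0.099, a fold of 1.71 (limma, adjusted p = 8.51e-09). Mrps6, called in 7 EWAT contrasts, read 6495, 5821, 6642, 6433 and 5158 with PEG2.5, against 4537, 3818 and 5054 with vehicle. Its lowest treated array was just above its highest vehicle array, with a fold of 1.37 (adjusted p = 0.000358). Mrps22 read 833, 924, 1210, 923 and 912 with PEG2.5, against 627, 604 and 721 with vehicle, a fold of 1.47 (limma, adjusted p = 0.00167). Mrps28 and Mrpl45 were called in 4 and 3 EWAT contrasts.

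EWAT of WT-chow mice had 13 members higher and 0 lower with PEG2.5 at 5 d (2.32% and 1.33% of probe sets), and 6, 7 and 6 without treated arrays 2 or 3 or vehicle array 5. Adipocyte markers were higher for 3 of 5 in this comparison, with sums of 27597 to 28872 with PEG2.5 and 24068 to 28087 with vehicle. Brown fat markers were higher for 1 of 7 and macrophage markers lower for 1 of 5, with macrophage sums of 2650 to 3451 with PEG2.5 and 3196 to 4185 with vehicle. Epididymis and testis markers did not pass the test, but 4 of 5 had a negative difference, to -1.96, with sums of 58 to 87 with PEG2.5 and 57 to 735 with vehicle. Mammary epithelium markers had a median of -0.44 and did not pass, with sums of 462 to 681 and 435 to 1408. What these cells contributed was not tested. PEG0.75 gave 2 higher and 2 lower (1.08% and 0.806%), and WT FGF21 gave 2 higher and 1 lower (1.97% and 1.6%). The member lower with both was Mrpl47, the counterpart of bacterial L29 at the exit of the protein tunnel. With WT FGF21 for 5 d it read 408, 381, 360, 411 and 432, against 513, 444, 504, 600 and 514 with vehicle, all treated arrays below all vehicle arrays (fold 0.775, limma, adjusted p = 0.0231). In EWAT of WT-chow mice at 5 d, 4 members differed by dose. Mrps18a, Mrpl18, Mrpl40 and Mrpl20 were higher with PEG2.5 than with PEG0.75 by 0.41, 0.24, 0.27 and 0.26 (0.188% of probe sets). In EWAT of db/db-chow mice 1 member, Mrps22, was higher with PEG2.5 at 5 d (0.73% of probe sets), and 0 members were called in the other 5 contrasts.

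In RPWAT at 5 d, calls were made in all 3 models. With PEG2.5, 15 members were higher and 0 lower in WT-HFD mice (2.78% and 1.9% of probe sets), and 9 without treated array 3 or 23 without vehicle array 2. Adipocyte and endothelial markers were each higher for 1 of 5 there. No skeletal muscle marker of 7 passed the test, but 6 had positive differences, with a median of 1.15 and sums of 549 to 8646 with PEG2.5 and 1177 to 2048 with vehicle. All 3 mammary epithelium markers had negative differences without passing the test, with a median of -0.736 and sums of 227 to 436 with PEG2.5 and 214 to 4485 with vehicle, and the part of these was not tested. Mrpl45, which sits at the tunnel exit and holds the ribosome to the inner membrane, read 1077, 1174, 1016, 1156 and 1007 with PEG2.5, against 620, 990, 717, 628 and 654 with vehicle. Vehicle array 2 came close to the treated arrays and the other 4 were far below, and the fold was 1.53 (limma, adjusted p = 3.46e-08). Mrpl1 had the same odd vehicle array, with 1204, 1055, 1319, 1071 and 1125 against 731, 999, 819, 730 and 738 (fold 1.44). Mrpl1 was called in 10 RPWAT contrasts, Mrpl45 and Mrps6 in 7 each and Mrpl20 and Mrps22 in 5 each.

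In RPWAT of db/db-chow mice at 5 d, 13 members were higher with WT FGF21 (3.51% of probe sets), 19 with PEG0.75 (2.67%) and 8 with PEG2.5 (1.8%), with 0 lower (3.45%, 0.911% and 0.932%). The count for WT FGF21 was 8 without treated array 2 and 7 without vehicle array 2, and that for PEG0.75 was 9 and 12 without treated arrays 4 and 5, and 10 and 11 without vehicle arrays 1 and 2. Mrps22 read 1519, 1350, 1548, 1378 and 1426 with PEG2.5, against 848, 1045, 1048, 1154 and 1018 with vehicle, a difference of 0.50 without overlap (limma, adjusted p = 0.00028). Respiratory chain subunits were higher for 20 of 77 with WT FGF21, 33 with PEG0.75 and 7 with PEG2.5. Brown fat markers passed the test for 2 of 7 with WT FGF21, 1 with PEG0.75 and 0 with PEG2.5, and their summed intensity was 8555 to 12829 with WT FGF21, 10915 to 12730 with PEG0.75 and 9667 to 10869 with PEG2.5, against 1469 to 5648 with vehicle. The brown fat marker sum thus did not overlap between any treated group and vehicle. Skeletal muscle markers all had positive differences with PEG0.75, with a median of 3.20 and 1 of 7 past the test, and all had negative ones with PEG2.5 (median -1.09) and WT FGF21 (median -0.926). Their sums were 628 to 760 with WT FGF21, 2213 to 19364 with PEG0.75 and 375 to 676 with PEG2.5, against 561 to 5515 with vehicle. All 5 kidney and adrenal markers had negative differences with PEG0.75, with a median of -1.79 and none past the test, and sums of 81 to 5642 with PEG0.75 and 831 to 7079 with vehicle. With WT FGF21 1 kidney and adrenal and 1 endothelial marker were lower, and adipocyte markers were higher for 2, 1 and 2 of 5 with WT FGF21, PEG0.75 and PEG2.5. The part of these tissues in the members' rise was not tested. In RPWAT of WT-chow mice 8 members were higher and 0 lower with PEG2.5 at 5 d (3.28% and 0.73%), and 5, 5, 3 and 4 without treated arrays 2 or 4 or vehicle arrays 3 or 5. There 1 of 7 brown fat and 1 of 5 adipocyte markers were higher, and all 5 kidney and adrenal markers had negative differences without passing the test (median -3.06), with sums of 97 to 316 with PEG2.5 and 1850 to 4865 with vehicle. WT FGF21 for 2 d in WT-chow mice gave 2 higher members and the 1 lower call of RPWAT (2.45% and 1.8%). The lower member was Mrps18a, with 675, 721, 680, 679 and 709, against 860, 766, 794, 739 and 898 (fold 0.856, limma, adjusted p = 0.0169).

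**Figure D4:**
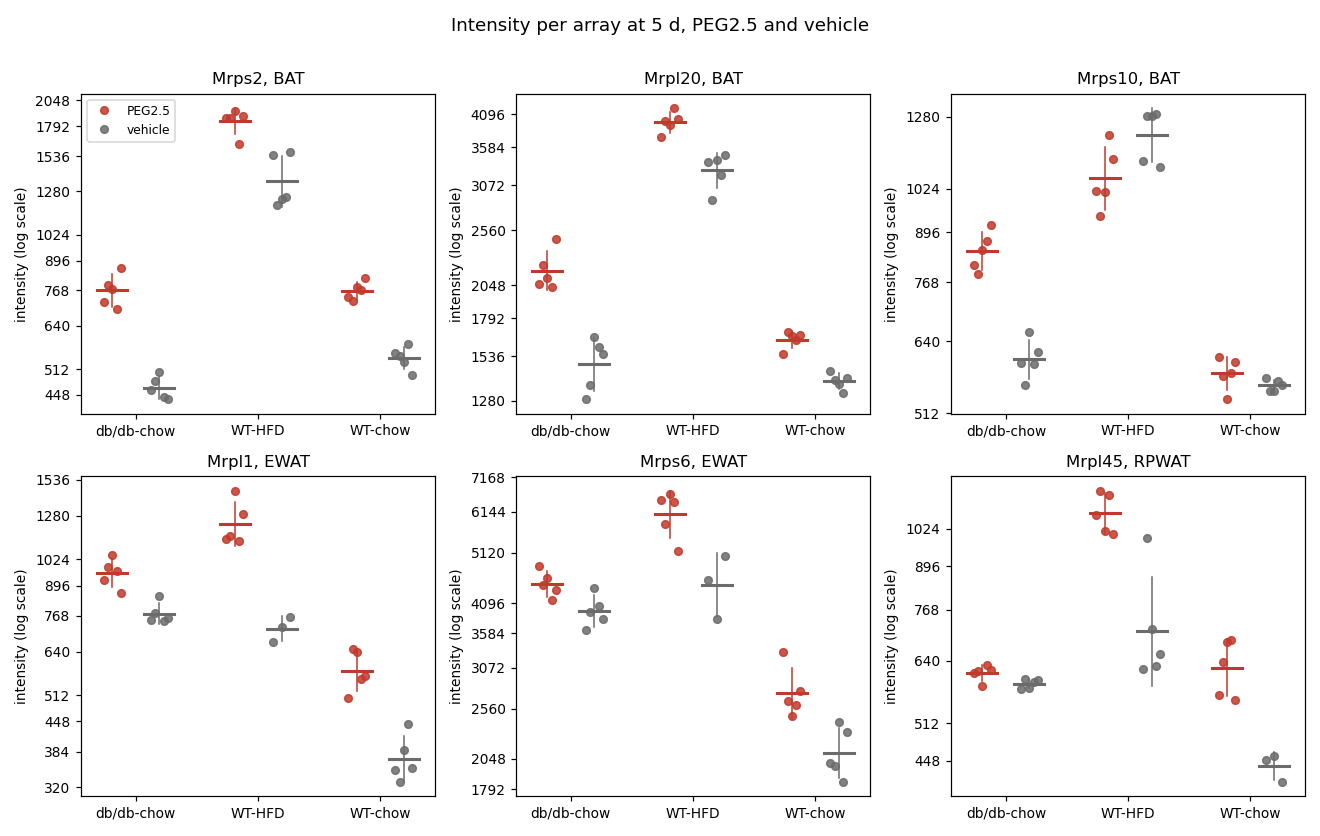
Intensity (log scale) of 6 member and depot pairs in each array at 5 d, PEG2.5 in red left of vehicle in grey, by model; bars are means and SD of log2 values. Mrps2 in BAT is higher with PEG2.5 in all 3 models, Mrps10 in BAT is higher with PEG2.5 without overlap in db/db-chow and overlaps in WT-HFD, and the EWAT vehicle group of WT-HFD and the RPWAT vehicle group of WT-chow hold 3 arrays.

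IWAT gave counts that turned on a single array. In db/db-chow mice at 2 d, 52 members were higher with WT FGF21, 48 with PEG0.75 and 51 with PEG2.5 (12.8%, 9.21% and 12.3% of probe sets). The members' median log2 intensity was 9.20 in vehicle array 2 and 10.19 to 10.32 in the other 4 vehicle arrays. Its skeletal muscle marker sum was 2289, where the others had 9114 to 64309. Its brown fat sum was 1412 against 2368 to 3662, and its endothelial sum 7391 against 9863 to 12073. The epididymis and testis sum was 464 against 95 to 121, and the adipocyte sum, 57989, lay within the range of the others. The part of these tissues in the counts was not tested. Without the 2 arrays that stood apart, 2, 3 and 2 members were higher (0.666%, 0.595% and 1.11%), and the medians were 0.11, 0.11 and 0.10, with 69, 71 and 68 of 72 differences positive. Mrpl1 shows the same in its own arrays, with 1884, 1680, 1804, 1791 and 1701 with PEG2.5, against 1626, 844, 1376, 1210 and 1461 with vehicle, and its difference was 0.33 both without that vehicle array (limma, adjusted p = 0.104) and without either of the odd arrays (adjusted p = 0.0711).

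In WT-HFD mice at 5 d, IWAT had 6 members higher and 0 lower with PEG2.5 (0.982% and 0.721% of probe sets), and 20 higher and 1 lower (3.12% and 2.58%), Mrps25, without the 2 arrays that stood apart, neither of which belongs to the compared groups. With those arrays kept and treated array 4 left out, 10 were higher. Mrpl1 read 1358, 1631, 1259, 1155 and 1420 with PEG2.5, against 936, 950, 997, 923 and 869 with vehicle, with a fold of 1.45 and no overlap (limma, adjusted p = 0.000537). Mrps36 read 2066, 1960, 2258, 1919 and 2549, against 1548, 1428, 1654, 1502 and 1676 with vehicle, with a fold of 1.37 (adjusted p = 0.00427). Brown fat markers were higher for 4 of 7 in this comparison, with sums of 2612 to 23824 in PEG2.5 arrays and 2636 to 5643 in vehicle arrays. No lymphocyte, macrophage or endothelial marker passed the test. All 5 lymphocyte markers had a negative difference, -2.25 to -1.05, with sums of 323 to 11624 with PEG2.5 and 3993 to 13661 with vehicle. All 5 macrophage markers had a positive one, with a median of 0.36 and sums of 9955 to 16642 and 7764 to 9432, which did not overlap. Endothelial markers were negative for 4 of 5, with sums of 6908 to 8882 and 8216 to 10444. The part of these cell types was not tested. In IWAT of WT-chow mice PEG2.5 gave 1 member higher at 2 d and 4 at 5 d (0.227% and 0.792%), and 11 and 9 without the 2 arrays (1.33% and 2.31%). With those arrays kept, the count of 1 at 2 d was 6 without treated array 1, and the count of 4 at 5 d was 0 without treated array 3, 1 without vehicle array 1 and 2 without vehicle array 2 or 5.

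The response to PEG2.5 at 5 d was then set between depots, as BAT minus each white depot. In db/db-chow mice members responded more in BAT, with 6 positive differences against IWAT (1.22% of probe sets), 26 against EWAT (3.4%) and 14 against RPWAT (1.85%), and 0 negative (1.25%, 5.42% and 2.72%). In WT-HFD mice the direction was the reverse, with 12 negative differences against IWAT (2.1%), 32 against EWAT (6.01%) and 28 against RPWAT (5.69%), and 0, 0 and 1 positive (1.46%, 3.08% and 3.5%). WT-chow mice had 2 positive and 4 negative against EWAT (3.55% and 4.35%), 0 positive and 5 negative against RPWAT (2.1% and 4.76%) and 0 of either sign against IWAT (1.36% and 1.27%). With the 2 IWAT arrays left out, an alternative added after the data had been seen, the differences against IWAT were 12 positive and 0 negative in db/db-chow mice (2.51% and 2.39%), 1 positive and 24 negative in WT-HFD mice (2.6% and 4.21%) and 2 positive and 2 negative in WT-chow mice (2.46% and 2.54%). Against EWAT in WT-HFD mice, Mrpl45 differed by -0.72, Mrpl1 by -0.71 and Mrps6 by -0.72. Against EWAT in db/db-chow mice Mrps2 differed by 0.70, Mrpl20 by 0.47 and Mrps23 by 0.38. Mrpl45 was also the 1 member whose response differed between db/db-chow and WT-HFD in EWAT and in RPWAT, by -0.64 and -0.56 (limma, adjusted p = 0.000627 and 0.00478), where 0.433% and 0.332% of probe sets had a negative difference. These depot comparisons share the BAT arrays of a model.

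Vehicle levels were set across depots by percentile rank, the position of a member among all probe sets of its own array. In WT-chow mice the median rank of the members was 96.2 ± 0.17 in BAT (SD, n = 10), against 89.5 ± 0.94 in IWAT, 89.9 ± 0.48 in EWAT (n = 10 each) and 91.1 ± 0.73 in RPWAT (n = 8). In 66 of 72 members the lowest BAT array ranked above the highest array of all white depots, and in 6 the ranges overlapped. The mean rank was higher in BAT than the mean of the white depots for 70 members, by a median of 5.45 points. The scale matters. On log2 intensity as deposited 64 of 72 were higher in BAT, after quantile normalization 70, and relative to the array median 72. The largest rank differences were those of Mrpl19 (78.4 in BAT and 62.5 to 63.4 in the white depots), Mrps2 (92.8 in BAT and 78.1 to 81.7) and Mrps17 (74.9 in BAT and 62.1 to 64.8). Mrps25 and Mrps6 ranked lower in BAT, by 1.38 and 0.33 points, and Mrpl33 differed by 0.19. The cytosolic ribosomal proteins ranked 98.4 in BAT and 99.0 to 99.4 in the white depots.

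**Figure D5:**
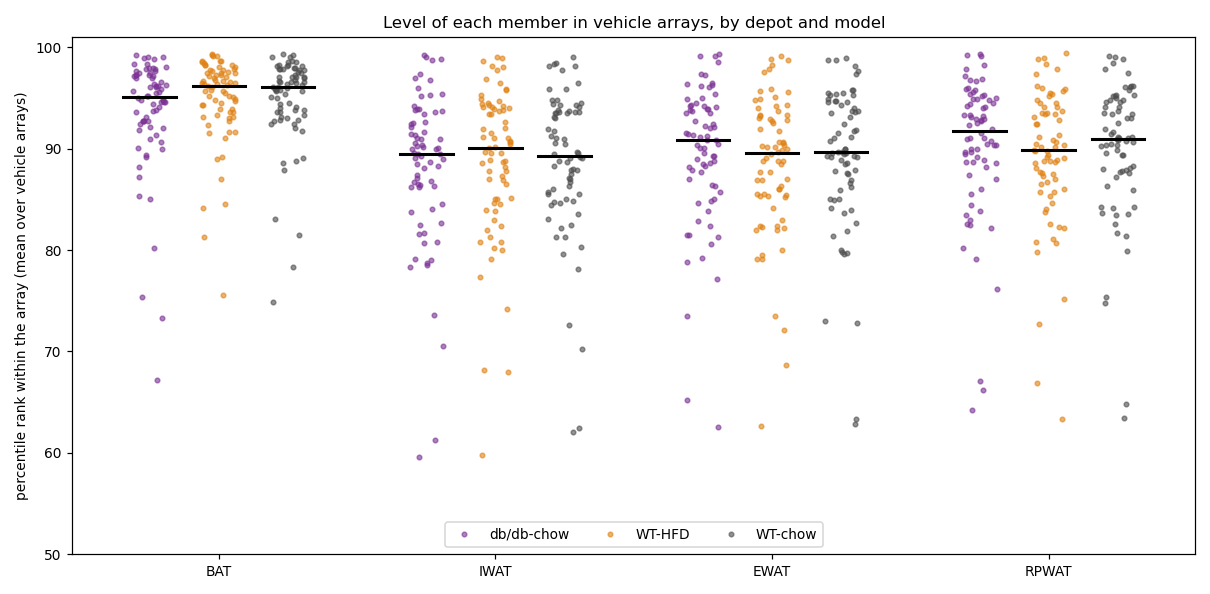
Percentile rank within the array of each member (points, mean over vehicle arrays) by depot and model, with medians as bars. The BAT medians lie near 96 in WT-HFD and WT-chow and lower in db/db-chow, above those of all 3 white depots.

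Between models the vehicle levels depended on the scale. In BAT, db/db-chow ranked below WT-chow for 61 of 72 members, by a median of 0.75 points, with separate ranges for 21 of them, while 52 of 72 were higher in db/db-chow on log2 intensity as deposited. Between WT-HFD and WT-chow in BAT, 43 members ranked higher in WT-HFD and 29 lower, with separate ranges for 2 and 4 of them. In EWAT 48 of 72 ranked lower in WT-HFD than in WT-chow, although all 72 had a higher log2 intensity as deposited. In RPWAT 57 ranked lower in WT-HFD than in WT-chow, and 48 ranked higher in db/db-chow than in WT-chow. No test was made of these levels.

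Members tended to vary together within groups, as did the genes of the other lists below. No baseline over all probe sets is given, so this is not read as particular to the members. Over arrays centred on their group means, the median pairwise correlation between members was 0.29 in BAT (119 arrays), 0.59 in IWAT (120), 0.41 in EWAT (115) and 0.38 in RPWAT (114). The cytosolic ribosomal proteins had 0.12, 0.44, 0.19 and 0.13, and the respiratory chain subunits 0.14, 0.58, 0.49 and 0.58. All pairs of a depot share their arrays. With the 2 odd IWAT arrays left out (118 arrays) the members had 0.42, the cytosolic ribosomal proteins 0.45 and the respiratory chain subunits 0.58 in IWAT. Where a gene had further probe sets, they did not always repeat the difference. A second Mrpl1 probe set had an N-way difference of 0.60 in BAT, 0.40 in IWAT (0.33 without the 2 arrays), 0.23 in EWAT and 0.20 in RPWAT, all past the test, and the third, the dimmest, had -0.020 in BAT and did not pass in any depot. The other Mrpl19 probe sets had 0.26 and 0.27 in BAT and passed there. The second probe set of Mrps9 had -0.044 in BAT and did not pass.

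Promoters, from 250 bases before to 50 bases after the start, were read from RefSeq (GRCm38.p6) for the 63 members matched by symbol or gene ID. They are given as a description, and whether the members share a control was not tested. Mrpl38, Mrps35, Mrpl19, Mrpl13, Mrps28, Mrpl54, Mrps34, Mrpl4 and Mrpl15 had no entry. Short motifs of factors known to act at genes of the mitochondrial ribosome were searched on both strands. A gene was counted if any of its promoter windows held the motif. The ETS motif CCGGAAG, read by the GABP factor, was present in 23 of 63 member genes (36.5%), against 9.93% of 27025 genes. The YY1 motif AAGATGGC was present in 11 (17.5%, against 3.19%) and the full NRF1 motif, capitals in the Mrpl39 sequence, in 3 (4.8%, against 1.07%). The E-box CACGTG was in 5 (7.9%, against 8.09%) and the ERR motif TCAAGGTCA in 0 (against 0.47%). Mrps22, which rose in every depot, has an ETS match that starts 11 bases before its start, chr9:98601630-98601929 on the minus strand. Mrps18a, also past the N-way test in all 4 depots, has an ETS match that starts 26 bases before and a YY1 match that starts 11 bases after its start, chr17:46110754-46111053 on the plus strand. Of the others higher in all 4 depots, Mrpl17 and Mrps18b have an ETS match, Mrpl35 a YY1 match and Mrpl20 only an E-box. Mrpl1, Mrps30 and Mrps36 have none of these motifs. Mrps2 and Mrpl46, which with Mrpl20 were called most often in BAT, also have none within their windows. Mrps11 has a YY1 match on the opposite strand, chr7:78782881-78783180 on the plus strand, and Mrpl39 an NRF1 match, chr16:84735195-84735494 on the minus strand. Capitals mark the matches.
Mrps22: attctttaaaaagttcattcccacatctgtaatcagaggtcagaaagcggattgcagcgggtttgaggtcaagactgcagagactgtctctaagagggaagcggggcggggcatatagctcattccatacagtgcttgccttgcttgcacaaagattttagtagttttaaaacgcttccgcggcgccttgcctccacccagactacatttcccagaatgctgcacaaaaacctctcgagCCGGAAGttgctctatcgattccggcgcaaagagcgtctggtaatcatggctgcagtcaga
Mrps18a: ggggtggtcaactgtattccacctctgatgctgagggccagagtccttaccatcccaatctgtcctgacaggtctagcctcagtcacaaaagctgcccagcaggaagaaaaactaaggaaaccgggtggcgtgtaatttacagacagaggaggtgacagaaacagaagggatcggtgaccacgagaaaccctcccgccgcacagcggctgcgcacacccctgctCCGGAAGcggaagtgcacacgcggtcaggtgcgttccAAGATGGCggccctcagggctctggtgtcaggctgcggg
Mrps11: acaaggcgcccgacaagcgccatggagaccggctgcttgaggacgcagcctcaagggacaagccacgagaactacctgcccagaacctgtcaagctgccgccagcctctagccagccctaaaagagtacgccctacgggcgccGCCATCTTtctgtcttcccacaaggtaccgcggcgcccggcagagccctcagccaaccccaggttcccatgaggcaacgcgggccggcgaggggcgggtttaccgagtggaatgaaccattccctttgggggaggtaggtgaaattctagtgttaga
Mrpl39: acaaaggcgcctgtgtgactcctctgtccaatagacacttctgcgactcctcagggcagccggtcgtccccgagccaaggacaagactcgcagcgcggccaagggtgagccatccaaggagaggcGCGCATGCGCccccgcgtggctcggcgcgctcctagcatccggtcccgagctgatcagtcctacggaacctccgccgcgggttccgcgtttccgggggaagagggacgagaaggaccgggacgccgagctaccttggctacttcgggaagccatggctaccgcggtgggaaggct

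A match is a description of the letters and does not show that a factor binds. Mrps11 and Mrpl46 are read away from each other from starts 42 bases apart, so that their windows overlap over 141 bases, chr7:78783040-78783180. The YY1 match of Mrps11 lies just outside this overlap, past the edge of the Mrpl46 window, and was not counted for Mrpl46. By the N-way test in BAT, 9 of 23 members with the ETS motif and 17 of 40 without it were higher, and in IWAT 14 of 23 and 22 of 40, or 13 and 15 without the 2 arrays that stood apart. With the YY1 motif these counts were 8 of 11 and 18 of 52 in BAT, and 5 of 11 and 31 of 52 in IWAT, or 4 and 24 without the 2 arrays. In EWAT 4 of 23 with the ETS motif and 8 of 40 without it were higher, and in RPWAT 9 of 23 and 14 of 40. For the YY1 motif the counts were 2 of 11 and 10 of 52 in EWAT, and 3 of 11 and 20 of 52 in RPWAT. The differences between members with and without a motif were not tested.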

How the data were processed

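RNA from 4 adipose depots was amplified with the NuGEN Ovation kit and hybridised by the authors to custom Affymetrix arrays. The deposited values are linear intensities, 1 per probe set, which the authors made by RMA in Rosetta Resolver, whose version is not given in the sources used here. They were put on the log2 scale from the deposited intensities, with no further normalization. Array medians were close within each depot and model and far apart between them, and such sets were apparently normalized separately, so no levels were tested across them and responses were compared between sets only as differences of differences. Arrays report brightness and not counts, and their number limits the precision. Genes were named from the platform annotation.

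The fits used limma 3.58.1 (lmFit and eBayes) in R 4.3.3, with 1 fit per depot over all groups for treatment against vehicle of the same model and day, and Benjamini-Hochberg adjustment over all 43681 probe sets (adjusted p under 0.05). The N-way fit had terms for FGF21 (any treatment against vehicle), model, day and their interactions, and tested the main effect of FGF21 at p under 0.001. The scripts were tested on simulated data. Groups were taken from the labels and compared over mice, with 3 to 5 arrays each. Replicate numbers did not pair arrays across groups and were not used as a block. Named members were, per depot, the 5 called most often in each direction, the 3 with the smallest N-way p in each direction, those called both ways in 1 depot, and those with the largest or smallest differences in rank between BAT and the white depots. Of other lists at most 4 genes a depot were named. The members and all lists were chosen with earlier results of these data known. Alternatives were the spread from compared groups only or from 1 model, array weights, quantile normalization, a filter on dim probe sets, the mean of a gene's probe sets, the ANOVA of the study's methods, a replicate block and leaving out arrays. Leaving out the 2 IWAT arrays that stood apart, the difference between db/db-chow and WT-HFD, the BAT minus IWAT differences without these arrays and the single-array counts were added after the data had been seen.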

Additional observations from a re-analysis of the deposited data

Results flagged for a closer look

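In 93 groups of 4 or more arrays the members' median log2 intensity was examined for an array far from the others of its group, and 8 were found, where chance gives about 1 in 20. The highest of their groups were 11.18 (array 3 of BAT WT-HFD, PEG0.75, 5 d), 10.16 (array 2 of BAT WT-chow, WT FGF21, 5 d), 10.41 (array 4 of BAT db/db-chow, PEG0.75, 5 d), 8.77 (array 5 of EWAT WT-chow, WT FGF21, 5 d), 10.63 (array 3 of IWAT WT-chow, PEG2.5, 5 d) and 9.45 (array 1 of RPWAT WT-chow, PEG0.75, 5 d). The lowest of their groups were 9.20 (array 2 of IWAT db/db-chow, vehicle, 2 d) and 9.37 (array 1 of RPWAT db/db-chow, vehicle, 2 d). Among 57 groups of single members, 3 held an array far from the rest. These were Mrpl19 at 157 in array 5 of BAT db/db-chow with PEG2.5 for 5 d, Mrps2 at 1631 in array 4 of BAT WT-HFD with PEG2.5 for 5 d and Mrps22 at 1210 in array 3 of EWAT WT-HFD with PEG2.5 for 5 d.

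Responses to PEG2.5 that differed between groups, each by a test of the difference in limma, were counted over the 72 members. Between models in BAT, 29 members responded more in db/db-chow than in WT-chow, and 41 more in db/db-chow than in WT-HFD. In EWAT and in RPWAT 1 member each, Mrpl45, responded less in db/db-chow than in WT-HFD. Between days, 3 members in BAT of db/db-chow and 1 (Mrpl19) in BAT of WT-HFD responded more at 5 d than at 2 d. In WT-chow, 1 (Mrpl45) in RPWAT responded more at 5 d and 1 (Mrpl41) in BAT responded less. Shares of all probe sets are not given for these WT-chow comparisons, so the single calls are not read as particular to the members. Between depots in db/db-chow, 6, 26 and 14 responded more in BAT than in IWAT, EWAT and RPWAT. In WT-HFD 12, 32 and 28 responded less in BAT than in these depots, and 1 responded more than in RPWAT. In WT-chow 2 responded more and 4 less in BAT than in EWAT, and 5 less than in RPWAT.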

How the results depend on the processing

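Counts below are of calls over all contrasts of a depot unless the N-way test is named. The causes of the changes were not tested. Shares of all probe sets are not given beside these counts, so they do not show an excess over the array. When the fit held the compared groups alone, lower calls in BAT were 18 (51 as reported), higher calls 13 in IWAT (165) and 22 in EWAT (75), and lower calls 0 in RPWAT (1). With a fit within each model, IWAT had 69 higher and EWAT 0 lower. The ANOVA of the study's methods, at a fold of at least 1.2 and unadjusted p under 0.05, gave 181 higher and 13 lower in BAT (304 and 51) and 98 higher and 1 lower in IWAT. After Benjamini-Hochberg adjustment it gave 193 higher and 13 lower in BAT, 2 higher in IWAT, 5 higher and 1 lower in EWAT and 39 higher in RPWAT. Array weights gave 99 higher and 3 lower in IWAT, 1 lower by the N-way test in IWAT, 5 lower in EWAT, and 132 higher and 2 lower in RPWAT. Quantile normalization gave 82 higher and 2 lower in IWAT, 2 lower in RPWAT, 0 members with a smaller response at 5 d than at 2 d (1 as reported) and 4 with a positive dose difference (7). It also turned Mrps23 in IWAT of db/db-chow with PEG2.5 at 2 d to -0.032. With dim probe sets left out, RPWAT had 4 lower, 2 members had a smaller response at 5 d, 17 had a positive and 2 a negative dose difference, and 1 responded less in a disease model than in WT-chow. Without the 2 IWAT arrays that stood apart, IWAT had 71 higher and 1 lower, and responses in BAT minus a white depot were 58 positive and 95 negative (49 and 81 as reported).

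Leaving out 1 replicate number at a time gave, in BAT, 243 to 275 higher and 29 to 41 lower, and by the N-way test 26 to 31 higher and 1 to 4 lower. In IWAT it gave 31 to 188 higher, and 23 to 43 by the N-way test. In EWAT it gave 25 to 70 higher and 0 to 6 lower, with 9 to 10 by the N-way test, and in RPWAT 46 to 69 higher and 0 to 5 lower, with 16 to 24. Larger responses at 5 d were 0 to 4 and smaller ones 0 to 1, dose differences 1 to 21 positive and 0 to 1 negative, larger responses in a disease model than in WT-chow 16 to 26 and smaller ones 0 to 1, and responses in BAT minus a white depot 21 to 35 positive and 50 to 76 negative. With the replicate block there were 308 higher and 54 lower in BAT, 164 higher for IWAT, 69 higher and 2 lower for EWAT, and 80 higher and 1 lower for RPWAT. Of 338 same-numbered pairs 92 had a correlation of deviations over 0.1, and in 0 of 72 comparisons did every pair. Of the named members' results, 4992 kept their side of the threshold under the alternatives, 902 lost the call, 36 gained one and 1 reversed. Direction was checked only for results called in the reported fit. A change of sign in an uncalled result was therefore not counted as a reversal. The results tallied were the N-way results of each depot and the PEG2.5 contrasts already called in the reported fit. Such a contrast could lose its call but not gain one, so losses and gains cannot be set against each other. Contrasts with WT FGF21 and PEG0.75 were not in this tally.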
